A study of Homo sapiens with 4 samples.

Results

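The EGF receptor family and its ligands were examined as 10 genes, the receptors EGFR, ERBB2 and ERBB3 and the ligands EGF, TGFA, AREG, EREG, HBEGF, BTC and NRG1. Every probe whose accession maps to 1 of these symbols was taken, which gave 18 probes out of 58201 on the array, or 10 genes out of 25122 with a symbol. The rule that lists the genes names no measured value, though earlier results of these data were known when it was written. RNA came from PC3 and DU145, established androgen-insensitive prostate cancer cell lines, derived from a bone and a brain metastasis. The conditions are PC3-shC and DU145-shC, which carry a control shRNA, and PC3-shESS2 and DU145-shESS2, which carry an shRNA against ESS2, a nuclear splicing factor homolog and transcriptional coregulator. All cells were grown in RPMI1640 with 10% FBS and no added EGF receptor ligand is mentioned. The study's methods describe stable PC3 cells obtained by plasmid transfection and puromycin selection, the labels speak of transduced cells, and for DU145 only the labels were used. Whether a line is 1 clone or a pool is not given in the sources used here, and 1 shRNA preparation stands for the knockdown in each line.

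EGF receptors are tyrosine kinases of the cell surface that pair when a ligand binds and then signal through the RAS-ERK and PI3K-AKT cascades. EGF, TGF-alpha, amphiregulin (AREG), epiregulin (EREG), heparin-binding EGF (HBEGF) and betacellulin (BTC) bind EGFR, the neuregulins bind ERBB3 and ERBB4, and ERBB2 has no known ligand of its own and serves as a partner for the others. The ligands are made as membrane-bound precursors that ADAM proteases cut free, and carcinoma cells often make both a receptor and its ligands, so that they stimulate themselves. Activity of the receptors lies in their phosphorylation, which an RNA array does not measure.

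Each condition has 1 array, so the difference between 2 arrays is a description of those arrays, without a test. A level is the background-subtracted signal of a probe in units of the scanner, and a difference is a log2 ratio after each array was divided by the 75th percentile of its signals, which was 263 for PC3-shC, 290 for PC3-shESS2, 212 for DU145-shC and 218 for DU145-shESS2. The ± sign gives the error that the array software estimates for a single spot, about 10% of a bright signal, and a difference is called beyond that error when it exceeds 1.96 times it. It covers neither hybridization nor culture. Between 50.83 and 52.61% of the non-control spots of an array were well above background, the software's test of a spot against its surroundings, and no such spot was saturated. The PC3 arrays shared a slide and scan and so did the DU145 arrays, hence line and slide cannot be told apart. ESS2 itself gave signals of 133 ± 13.4 in PC3-shC, 53.6 ± 5.65 in PC3-shESS2, 85.7 ± 8.74 in DU145-shC and 17.3 ± 2.36 in DU145-shESS2. Both knockdown arrays were thus lower than their control, 2.74-fold in PC3 and 5.09-fold in DU145. All 4 epithelial markers (KRT8, KRT18, EPCAM and CDH1) were well above background on every array, and EPCAM read 2120 in DU145-shC and 357 in DU145-shESS2, 6.11-fold lower, while the DU145 ratios of KRT8, KRT18 and CDH1 were 0.28, -0.03 and -0.0032. The part of EPCAM in the DU145 ratios was not tested.

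EGFR, the receptor for most of the ligands, was higher after ESS2 knockdown in PC3 and was the receptor with the widest range over the arrays. Its brightest probe (NM_005228) read 1590 ± 159 in PC3-shC, 3330 ± 333 in PC3-shESS2, 301 ± 30.1 in DU145-shC and 257 ± 25.8 in DU145-shESS2. Both PC3 arrays lay above both DU145 arrays, with the PC3 knockdown highest and the DU145 arrays within error of each other. After scaling, the knockdown ratio in PC3 was 0.93 ± 0.20 on the log2 scale, or 1.9-fold, which was beyond the error and just short of 2-fold, and in DU145 it was -0.27 ± 0.20, within the error. The control arrays differed by 2.09 ± 0.20, or 4.26-fold, with PC3 higher. In the limma fit over all 4 arrays described below, the line difference of EGFR was 2.69 on the log2 scale with an adjusted p of 0.00893.

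The other EGFR probes gave a different picture of the lines. The probe for NM_201283, a short transcript that encodes a receptor without the membrane and kinase parts, read 107 ± 10.9 in PC3-shC, 217 ± 21.8 in PC3-shESS2, 191 ± 19.2 in DU145-shC and 128 ± 13 in DU145-shESS2. On this probe the PC3 control was the lowest of the 4 arrays, and the knockdown ratios were 0.88 ± 0.21 in PC3 and -0.62 ± 0.21 in DU145, both beyond the error and on the same sides of 0 as the brightest probe. The control arrays, however, differed by -1.15 ± 0.21, with DU145 higher, so the probes disagreed in direction at baseline and their difference of -3.24 ± 0.29 was beyond the error. A dim probe for another short transcript (NM_201282) read 33, 50, 19.7 and 23 in the same order of arrays, with knockdown ratios of 0.46 in PC3 and 0.18 in DU145 and a baseline ratio of 0.43. All 3 EGFR probes were therefore higher in PC3-shESS2 than in PC3-shC, while the 4.26-fold baseline difference rested on the brightest probe alone. With the mean of the 3 probes in its place, the baseline ratio was 0.46.

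ERBB2, the shared partner receptor, differed in opposite directions in the lines, by less than 2-fold in each. It is printed 10 times on each array, and the spots ranged from 2600 to 2860 with a median of 2725 in PC3-shC, from 2150 to 2350 with a median of 2245 in PC3-shESS2, from 1460 to 1620 with a median of 1570 in DU145-shC and from 2240 to 2490 with a median of 2405 in DU145-shESS2. The knockdown ratio was -0.42 ± 0.20 in PC3 and 0.57 ± 0.20 in DU145, each beyond the error. After scaling, the spots of the control and the knockdown array did not overlap in either line. The ratio of single spots had an SD of 0.068 in PC3 and 0.067 in DU145 on the log2 scale, which measures printing and hybridization within an array only. The PC3 control was higher than the DU145 control by 0.50 ± 0.20. This baseline ratio depended on the scaling and ran from 0.06 with the deposited values to 0.96 with median scaling.

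ERBB3, the kinase-poor receptor for neuregulins, split by probe. The brightest probe (NM_001982) read 810 ± 81 in PC3-shC, 817 ± 81.8 in PC3-shESS2, 513 ± 51.4 in DU145-shC and 354 ± 35.5 in DU145-shESS2. It was lowest in DU145-shESS2, and its knockdown ratios were -0.13 ± 0.20 in PC3, within the error, and -0.58 ± 0.20 in DU145, beyond it. The probe for NM_001005915, a short transcript that encodes a secreted form, read 388 ± 38.8, 543 ± 54.3, 181 ± 18.3 and 281 ± 28.2 in the same order. Here both knockdown arrays were above their controls, by 0.34 ± 0.20 in PC3, within the error, and 0.59 ± 0.20 in DU145, beyond it. Short minus long probe came to 0.47 ± 0.29 in PC3, within the error, and 1.17 ± 0.29 in DU145, beyond it. One more probe, also assigned to NM_001982, was dim with signals of 22.7, 19.5, 14 and 10.9, and its knockdown ratios of -0.36 in PC3 and -0.40 in DU145 had the sign of the brightest probe. ERBB3 was thus the only receptor of the 3 whose brightest probe had the same sign in both lines.

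**Figure D1:**
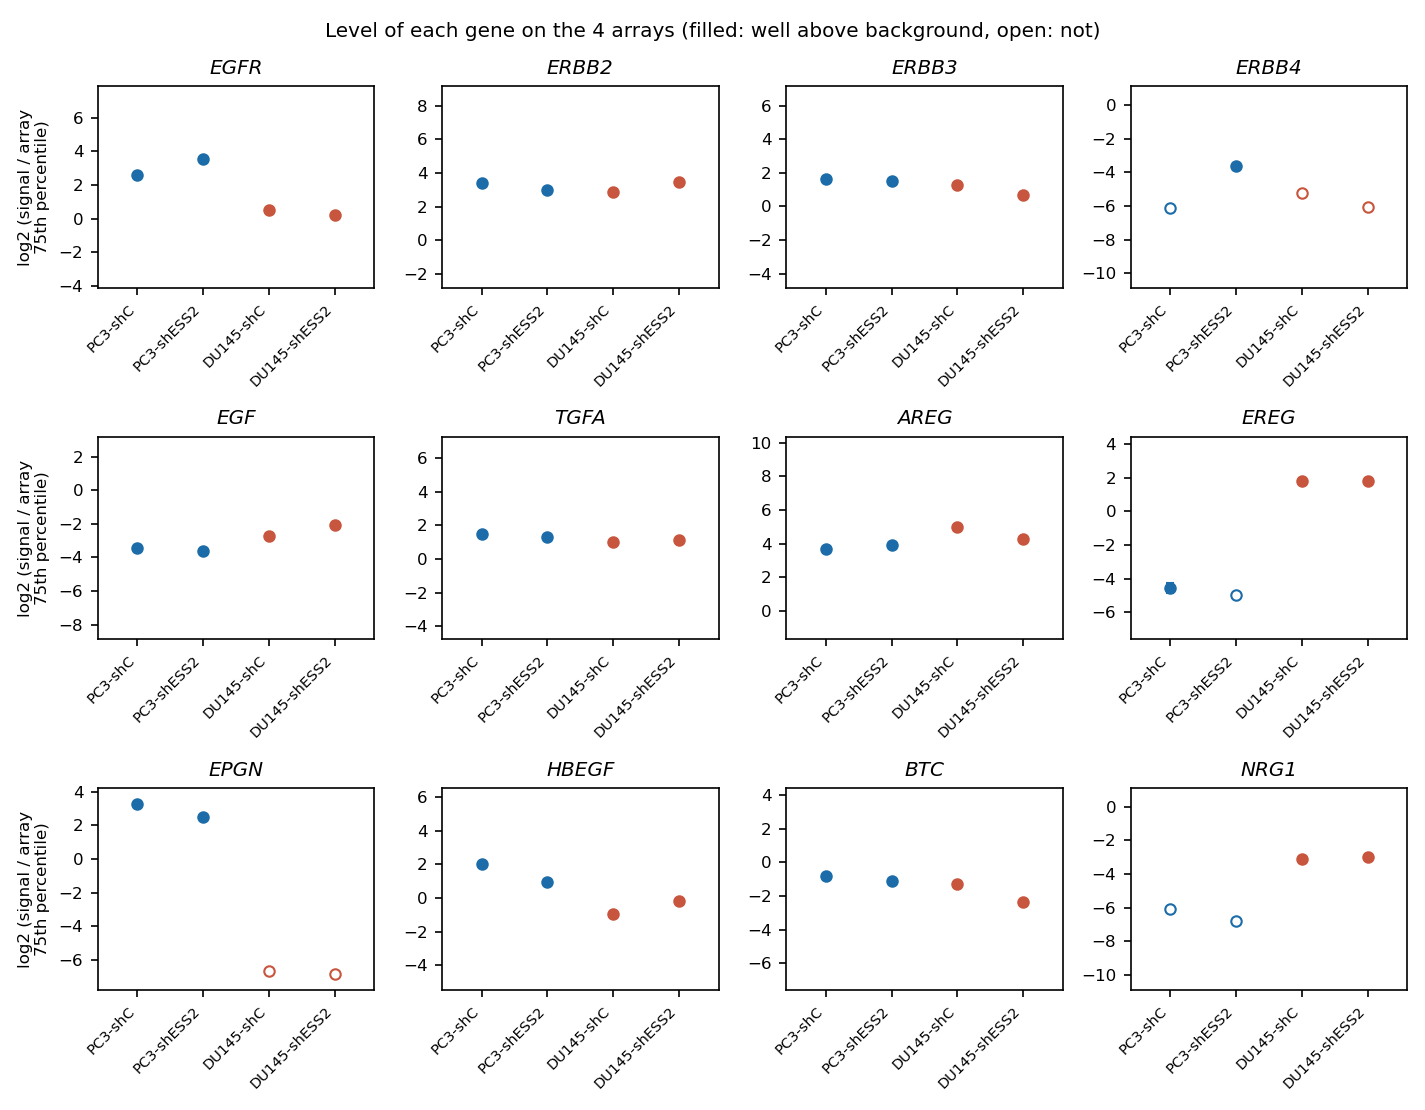
Level of the 10 genes, with ERBB4 and EPGN added, on each array, as log2 of the signal over the 75th percentile of the array (y axis, every panel spans 12 log2 units around the middle of its own values). Points are the brightest probe of the gene, blue for PC3 and red for DU145, bars are the software error of the spot (mostly smaller than the symbol), and open points are not well above background. EREG and NRG1 stand higher in DU145, EPGN in PC3 with open points in DU145, and EGFR and HBEGF are higher in PC3 than in DU145.

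EPGN, EREG, AREG and BTC lie next to each other, in this order, on chromosome 4 with no other protein-coding gene between them in the RefSeq table, and the control arrays of PC3 and DU145 differed in which of these neighbours they expressed. Their promoters are shown because of that difference, as the 250 bases ahead of the annotated start (RefSeq, GRCh38.p14, read 5′ to 3′ in the direction of transcription). EPGN spans chr4:74308220-74308469 on the plus strand, EREG chr4:74364895-74365144 on the plus strand, AREG chr4:74444886-74445135 on the plus strand and BTC chr4:74794524-74794773 on the minus strand. Capitals mark matches on either strand to common promoter letters. The TATA box was searched as TATAAA and the box bound by NF-Y as CCAAT. For the GC box, the site of SP1, the letters were GGGCGG. The site of AP-1, the factor of FOS and JUN, was searched as TGANTCA. For the cyclic AMP response element the letters TGACGTCA were used. An E-box was searched as CACGTG, and the site of NF-kB by its usual 10-letter form. The motifs, of which none overlaps another in these windows, were chosen after the values were seen.
EPGN: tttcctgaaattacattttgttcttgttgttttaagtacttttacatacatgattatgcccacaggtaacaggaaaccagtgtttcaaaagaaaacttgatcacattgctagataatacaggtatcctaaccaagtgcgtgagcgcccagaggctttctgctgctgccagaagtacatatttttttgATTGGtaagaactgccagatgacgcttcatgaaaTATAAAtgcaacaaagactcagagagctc
EREG: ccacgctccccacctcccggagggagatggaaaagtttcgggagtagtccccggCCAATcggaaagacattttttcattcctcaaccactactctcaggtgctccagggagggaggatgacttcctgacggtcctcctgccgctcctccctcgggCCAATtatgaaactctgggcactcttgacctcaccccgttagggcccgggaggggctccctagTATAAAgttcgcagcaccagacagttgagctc
AREG: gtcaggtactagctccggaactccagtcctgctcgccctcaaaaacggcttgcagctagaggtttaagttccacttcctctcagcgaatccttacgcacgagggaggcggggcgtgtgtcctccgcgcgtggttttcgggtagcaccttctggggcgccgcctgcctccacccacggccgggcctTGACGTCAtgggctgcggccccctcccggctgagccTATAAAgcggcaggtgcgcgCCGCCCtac
BTC: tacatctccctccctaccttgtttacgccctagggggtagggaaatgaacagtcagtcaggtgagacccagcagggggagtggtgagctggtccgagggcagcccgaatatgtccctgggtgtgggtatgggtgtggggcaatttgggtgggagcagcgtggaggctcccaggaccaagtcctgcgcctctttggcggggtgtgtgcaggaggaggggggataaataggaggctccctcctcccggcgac

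EPGN, EREG and AREG each hold TATAAA on the strand shown, from -29, -32 and -29 relative to the start. Of the 35116 RefSeq promoter windows, 10.7% hold it on either strand. AREG also holds TGACGTCA from -65, which occurs in 1.65% of the windows. CCAAT occurs in EREG at -196 and -95 and, on the opposite strand, in EPGN at -63, against 32% of all windows, and GGGCGG occurs in AREG at -9 on the opposite strand, against 42.6%. None of these letters was found in the BTC window. The AP-1 site, the E-box and the NF-kB site occur in 6.57, 6.34 and 5.21% of all windows and in none of the 4. The content of G and C was 38% in EPGN, 58% in EREG, 65.2% in AREG and 62% in BTC, with a median of 58% over all windows, and the number of CG pairs was 3, 11, 23 and 8, with a median of 11. The matches are descriptions of the letters and say nothing on whether a factor bound.

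EREG, the EGFR ligand epiregulin, was all but restricted to DU145. It read 11 ± 2.3 in PC3-shC, 9.12 ± 2.26 and not well above background in PC3-shESS2, 741 ± 74.1 in DU145-shC and 766 ± 76.6 in DU145-shESS2. The DU145 arrays were within error of each other, with a knockdown ratio of 0.01 ± 0.20, and both lay far above PC3. At baseline EREG was 83.6-fold lower in PC3, a log2 ratio of -6.38 that rests on a PC3-shC signal close to the lowest bright signal and ran from -6.83 with the deposited values to -3.82 with normexp. In PC3 the knockdown array was not well above background, and its own signal gave a ratio of -0.41, which ran from -0.55 to -0.11 over other settings, so no difference can be read from it.

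EPGN, which encodes epigen, a further EGFR ligand, showed the reverse. It was not among the 10 genes but belongs to the list of other receptors and ligands. It read 2540 ± 254 in PC3-shC and 1630 ± 163 in PC3-shESS2, whereas its signals of 2.08 and 1.93 in DU145 were not well above background. At baseline it was at least 237-fold higher in PC3. Within PC3 the knockdown ratio was -0.78 ± 0.20, beyond the error.

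AREG, the ligand amphiregulin, was bright on every array. Its brightest probe read 3370 ± 337 in PC3-shC, 4310 ± 431 in PC3-shESS2, 6730 ± 673 in DU145-shC and 4170 ± 417 in DU145-shESS2, and a second probe read 1120 ± 112, 1470 ± 147, 2330 ± 233 and 1420 ± 142. The DU145 control stood above the other 3 arrays on both probes, and neighbours among those 3 were within error. The knockdown ratio in DU145 was -0.73 ± 0.20 on the brightest probe and -0.75 ± 0.20 on the second, beyond the error on each, and in PC3 it was 0.21 ± 0.20 and 0.25 ± 0.20, within it. At baseline PC3 was lower by 1.31 and 1.37 on the log2 scale. The limma line difference of AREG did not pass, with an adjusted p of 0.085, but it passed with quantile normalization, normexp and the deposited values.

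BTC, the ligand betacellulin, was the member with the largest knockdown ratio in DU145. It read 148 ± 15 in PC3-shC, 132 ± 13.3 in PC3-shESS2, 87.8 ± 9 in DU145-shC and 42.9 ± 4.67 in DU145-shESS2. DU145-shESS2 was the lowest array and the other neighbours were within error. The knockdown ratio was -1.07 ± 0.22 in DU145, a 2.1-fold lower level (with normexp -0.56, short of 2-fold), and -0.31 ± 0.21 in PC3, within the error. The baseline ratio was 0.44 with PC3 higher, and -0.0036 with the deposited scaled values.

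HBEGF, the heparin-binding ligand, gave the only knockdown ratio past 2-fold among the members in PC3 and an opposite one in DU145. Its promoter (RefSeq, GRCh38.p14, chr5:140346604-140346853, minus strand) is shown beside that of EGFR (chr7:55018767-55019016, plus strand, the first of 2 starts in the table), since these 2 members differed most in opposite directions in PC3. Capitals mark matches to the same letters.
HBEGF: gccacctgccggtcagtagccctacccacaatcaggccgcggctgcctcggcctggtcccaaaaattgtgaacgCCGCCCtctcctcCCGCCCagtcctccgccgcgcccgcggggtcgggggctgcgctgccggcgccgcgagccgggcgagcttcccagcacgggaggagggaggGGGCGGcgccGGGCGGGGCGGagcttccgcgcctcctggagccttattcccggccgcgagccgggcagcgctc
EGFR: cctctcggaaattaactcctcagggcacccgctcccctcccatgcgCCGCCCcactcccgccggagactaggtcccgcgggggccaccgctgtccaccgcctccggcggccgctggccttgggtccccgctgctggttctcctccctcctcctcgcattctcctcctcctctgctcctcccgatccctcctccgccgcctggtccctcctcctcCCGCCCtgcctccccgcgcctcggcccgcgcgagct

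HBEGF held 5 matches to GGGCGG, 2 of them overlapping between -63 and -53, and EGFR held 2, and neither of these windows held TATAAA or any other motif searched. The window at the other EGFR start, not shown, held 2 matches each to TATAAA and to the AP-1 site. G and C made up 76.4% of the HBEGF window and 73.6% of the EGFR window, with 33 and 25 CG pairs. HBEGF read 1060 ± 106 in PC3-shC, 575 ± 57.5 in PC3-shESS2, 112 ± 11.4 in DU145-shC and 193 ± 19.4 in DU145-shESS2. The order PC3-shC, PC3-shESS2, DU145-shESS2, DU145-shC had every neighbour beyond the error. The knockdown ratio was -1.02 ± 0.20 in PC3, a 2.03-fold lower level and 0.74 ± 0.20 in DU145. With quantile normalization, normexp or the deposited scaled values the PC3 ratio was short of 2-fold, and it was -0.89 where smallest. At baseline PC3 was 7.63-fold higher, and the limma line difference had an adjusted p of 0.0327.

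TGFA, the ligand TGF-alpha, varied little on its brightest probe. Its brightest probe (NM_001308158) read 724 ± 72.4 in PC3-shC, 712 ± 71.3 in PC3-shESS2, 432 ± 43.3 in DU145-shC and 470 ± 47 in DU145-shESS2. After scaling these spanned 1.35-fold, and each neighbour in the order was within error of the next. The knockdown ratios were -0.17 ± 0.20 in PC3 and 0.08 ± 0.20 in DU145. A dimmer probe (NM_003236) read 39.8, 45.8, 20.1 and 15.2 and gave 0.06 ± 0.23 in PC3 and -0.44 ± 0.32 in DU145, all within the error, and spanned 2.27-fold. At baseline PC3 was higher by 0.43 ± 0.20 and 0.67 ± 0.27 on these probes, each beyond the error.

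EGF, the founding ligand, was dim but above background on all 4 arrays. It read 23.8 ± 3.05 in PC3-shC, 23.5 ± 3.05 in PC3-shESS2, 31.7 ± 3.68 in DU145-shC and 52.5 ± 5.53 in DU145-shESS2. DU145-shESS2 was the highest array. The knockdown ratio was 0.69 ± 0.23 in DU145, beyond the error, and -0.16 ± 0.26 in PC3, within it, and the DU145 ratio was 0.32 with normexp. In limma EGF was lower in PC3 by 1.15 on the log2 scale with an adjusted p of 0.0348.

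NRG1, neuregulin 1, a ligand of ERBB3 and ERBB4, was above background in DU145 only, and on 1 of its 3 probes. That probe read 24.1 ± 3.28 in DU145-shC and 27.9 ± 3.5 in DU145-shESS2, a ratio of 0.17 within the error, and its signals of 3.89 and 2.58 in PC3 were not well above background. NRG1 was at least 3.34-fold lower in PC3 at baseline. The other 2 probes were dim on all 4 arrays. NRG2, a related ligand, read 323 ± 32.3 and 351 ± 35.2 in DU145-shC and DU145-shESS2 and was dim in PC3, at least 44.8-fold lower. NRG4, a ligand of ERBB4, read between 26 and 37.4 on all arrays, with knockdown ratios near 0 in both lines. NRG3 was dim everywhere. ERBB4, the remaining receptor, was above background only in PC3-shESS2, at 23.2 ± 3.33 on 1 of its 2 probes, which made it at least 2.35-fold higher than in PC3-shC.

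**Figure D2:**
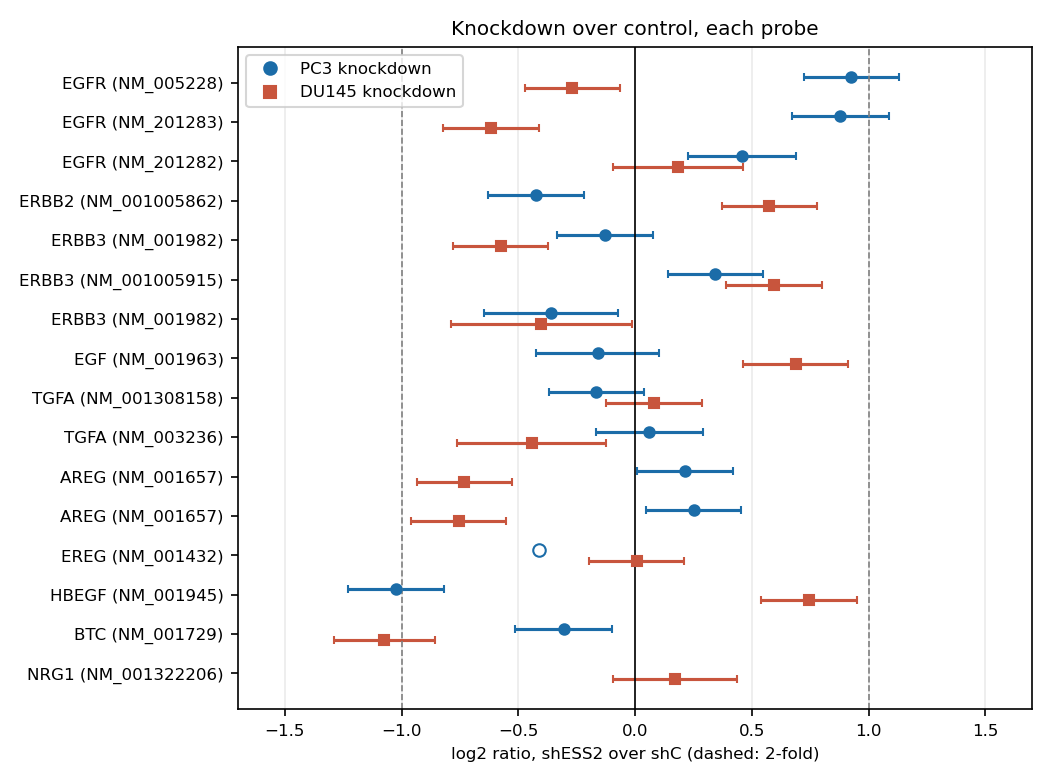
Log2 ratio of knockdown over control (x axis) for each probe of the 10 genes that could be compared (y axis, with the transcript each probe is assigned to), blue circles for PC3 and red squares for DU145. Bars are 1 software error, the open circle is EREG in PC3, whose knockdown signal was not well above background, and dashed lines mark 2-fold. Only HBEGF in PC3 (-1.02) and BTC in DU145 (-1.07) lie past 2-fold, and ERBB2 and HBEGF lie on opposite sides of 0 in the lines with both ratios beyond the error, as does the EGFR probe for NM_201283.

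Set against all genes, few members were past 2-fold after knockdown, as were few genes at large. In PC3, 1 of the 9 members compared was past 2-fold (HBEGF), and 7.75% of all 16751 genes compared were. In DU145, 1 of 10 was (BTC), and 4.83% of 16826 genes were. The median log2 ratio of the members was -0.17 in PC3, where that of all genes was -0.06, and 0.04 in DU145, where that of all genes was -0.02. Of the 9 members with a ratio in both lines, 7 had opposite signs, and 43% of 15462 genes did. For EGFR, AREG, EGF, TGFA and EREG at least 1 of the ratios was within the error or rested on a dim signal, so a sign there carries little. On the probes that stand for the genes, ERBB2 and HBEGF were beyond the error in both lines with opposite sign.

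The only replicated comparison of the knockdown that the design allows is a limma fit over all 4 arrays with the line as a block. It gave no member an adjusted p under 0.05 for the knockdown. Their adjusted p-values ran from 0.746 to 0.98, and over all 17126 genes 0 (0%) passed, with 1047 at an unadjusted p under 0.05. No member was among those 1047. The largest knockdown effect among the members was that of BTC at -0.69 ± 0.26 (SE, adjusted p = 0.746), and HBEGF, with its opposite ratios, came to -0.14 ± 0.49 (SE, adjusted p = 0.946). These averages over lines stand for the separate ratios of -0.31 and -1.07 for BTC and -1.02 and 0.74 for HBEGF in PC3 and DU145. The fit had 1 residual degree of freedom.

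**Figure D3:**
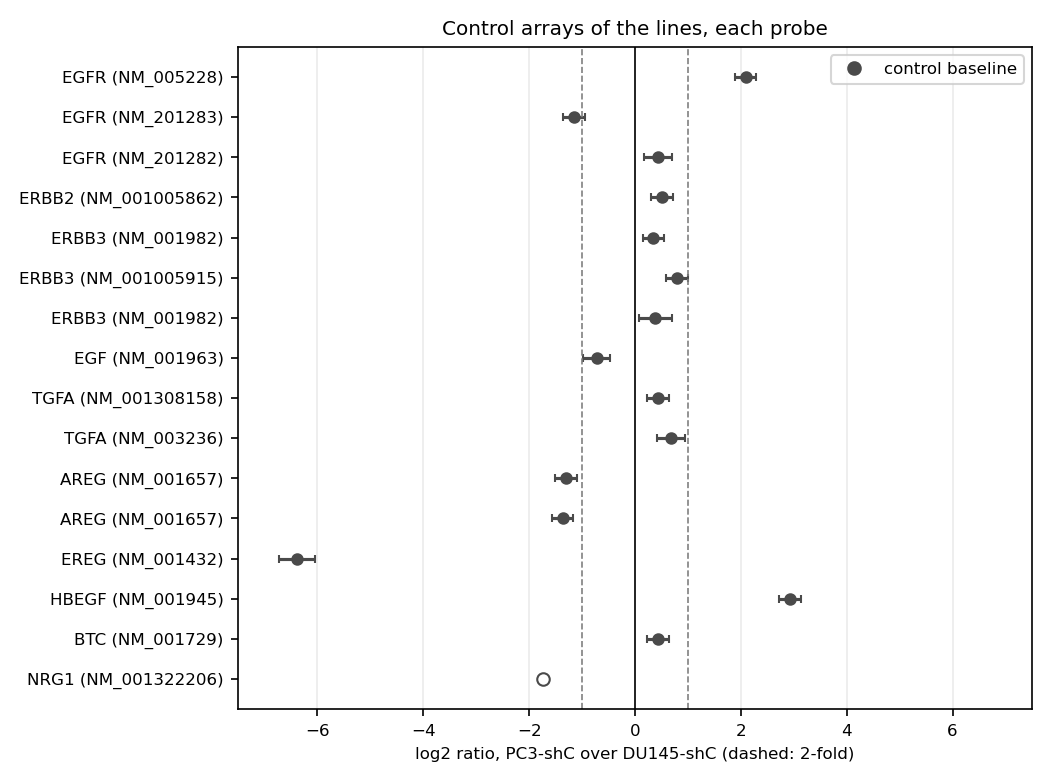
Log2 ratio of PC3-shC over DU145-shC (x axis) for each probe of the 10 genes that could be compared (y axis, with the transcript of the probe). Bars are 1 software error, the open circle for NRG1 is a bound and dashed lines mark 2-fold. HBEGF and the brightest EGFR probe are to the right, EREG is at -6.38, and the EGFR probes fall on both sides of 0.

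Between the control arrays 5 of the 10 members were past 2-fold, EGFR and HBEGF higher in PC3 and AREG, EREG and NRG1 lower, and 42.2% of all 17410 genes were. AREG was short of 2-fold with median scaling and NRG1 with normexp, EGFR and NRG1 with the mean of their probes, and EGF was past it with the deposited values. These comparisons share their control arrays with the knockdown ratios of each line. The median ratio over all genes was 0.13 here, but 0.58 after scaling to the array median and -0.34 with the deposited scaled values, so small baseline differences depend on the scaling, and those of BTC, ERBB3 and TGFA turned negative with the deposited values. GAPDH, a reference gene, differed by 0.73 between the control arrays and by 0.18 and 0.04 between knockdown and control in PC3 and DU145, and ACTB by 0.21, 0.15 and -0.04. In limma, 5 of 10 members passed for the line (EGFR, EREG, HBEGF, EGF and NRG1), and so did 52.3% of all genes. NRG1 and EREG met the filter through the DU145 arrays, where they are high, and NRG1 had both PC3 values set to the lowest bright signal, so their calls say nothing beyond the ratios above, and among genes above background on all 4 arrays 3 members passed. EGFR lost it without a filter and with the mean of its probes, and HBEGF without a filter and with the deposited values. NRG1 lost it with normexp and the mean of its probes, and EGF under 3 other scalings or backgrounds and without a filter. Besides AREG, BTC passed with median scaling and normexp, and ERBB3 with median scaling. ERBB2, with a line difference of 0.0048 and an adjusted p of 0.991, was the member nearest to 0.

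Genes that act with the receptors were taken from 6 lists with 71 genes in all. In PC3, 69 could be compared, of which 3 were higher (2 of them, ERBB4 and the adaptor GAB1, as bounds) and 4 lower past 2-fold, and in DU145 3 of 68 were higher and none lower. These are 10.1 and 4.41% of the listed genes, beside 7.75 and 4.83% of all genes. In PC3-shESS2, LRIG1, a membrane protein that promotes the breakdown of EGF receptors, was the lowest, with a signal of 296 against 1403 in the control and a log2 ratio of -2.39. DU145 gave 507 against 406 for it and a ratio of 0.28. ADAM12, a protease that can shed HBEGF, read 73.6 against 247 in PC3 (-1.89), with all 4 of its probes lower but 2 of them by 0.20 or less. DUSP6, a phosphatase that ERK signalling induces and that acts on ERK, read 3770 against 8960 (-1.39), and NRAS, a RAS protein, read 564 against 217 (1.24). Of the 9 sheddases and regulators, ADAM17, the main protease for AREG, EREG, HBEGF and TGFA, had ratios of 0.03 in PC3 and -0.01 in DU145. ADAM10, which cuts EGF and BTC, had 0.41 and 0.57 on its brightest probe. A second ADAM10 probe gave 0.19 ± 0.20 in PC3, within the error, and 0.71 ± 0.20 in DU145, beyond it.

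In DU145 the genes past 2-fold were FOS, an early target of ERK, at 5260 against 1810 (1.50), FRMD8, a partner of the rhomboid proteins that carry ADAM17 to the surface, at 3830 against 1770 (1.07), and CBLC, a ubiquitin ligase of the receptors, at 107 against 51.9 (2-fold). In PC3 the ratios of FOS, FRMD8 and CBLC were 0.83, 0.22 and -0.14. Of the rhomboid proteins listed, RHBDF2 went the other way in DU145, at 1220 against 2350 (-0.99), beyond the error and just short of 2-fold. RHBDF1 read 526 against 488 (0.07), within the error. Their PC3 ratios of -0.36 for RHBDF2 and 0.33 for RHBDF1 were within the error. The median ratio of the 16 ERK response genes was -0.23 in PC3 and 0.04 in DU145, and that of the 15 adaptors was 0.17 and 0.22. At baseline 16 of 69 were higher in PC3 past 2-fold and 17 lower, or 47.8%, beside 42.2% of all genes. The shedding protease ADAM19 (18.9-fold), the phosphatase DUSP4 (10.3-fold) and CBLC (5.82-fold) were higher in PC3. The early genes EGR1 (105-fold) and FOS (76.9-fold) and the adaptor SHC1 (8.54-fold) were lower. CBLB, a ligase that also marks EGFR for breakdown and that was picked out after its values were seen, was higher by 0.93 in PC3 and 0.99 in DU145, with an adjusted p of 0.746 for the knockdown in limma.

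**Figure D4:**
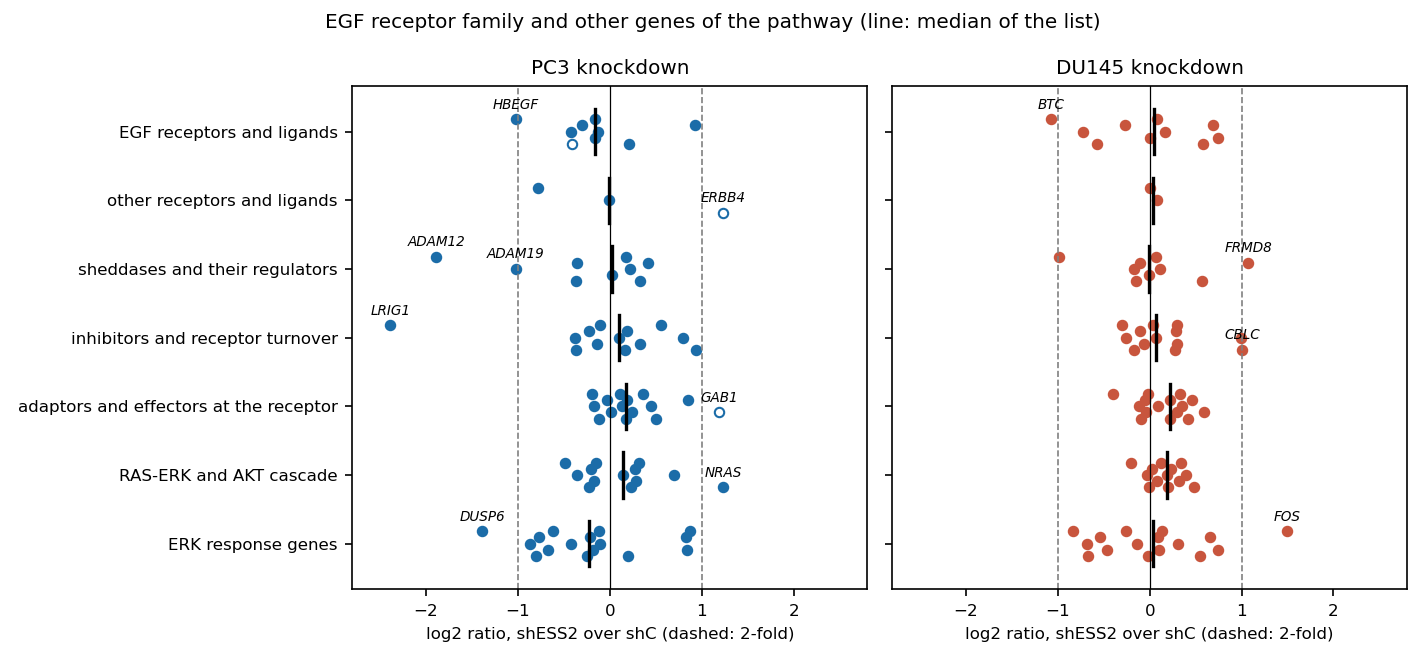
Log2 ratio of knockdown over control (x axis) in PC3 (left, blue) and DU145 (right, red) for the 10 genes and the 6 lists of other pathway genes (y axis). Each point is a gene, open points rest on an array where the gene was not well above background, the vertical bar is the median of the list and genes past 2-fold (dashed) are named. The medians lie between -0.23 and 0.22 in both lines.

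Markers of other cell types were also read. Of the 2 endothelial genes, PECAM1 read 338 in PC3-shC and 16.4 in PC3-shESS2 and VWF 24.4 and 30.4 on their brightest probes. A second VWF probe read 23.4 in PC3-shC and 10.5, not well above background, in PC3-shESS2. The summed signal of the brightest probes was 362 in PC3-shC, 46.8 in PC3-shESS2, 31.2 in DU145-shC and 41 in DU145-shESS2. The 2 fibroblast genes summed to 13, 51.1, 3.9 and 4.21 with DCN dim on all arrays, and the 4 leukocyte genes to between 36.9 and 70.2 with 1 or 2 of them above background. Their part in the ratios of HBEGF and EGFR in PC3 was not tested. In bulk RNA, fewer cells of a kind and less RNA per cell cannot be told apart.

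Among members well above background on all 4 arrays, EGFR, HBEGF and EGF had the widest range, and the genes whose levels ran most like theirs were found over the 4 arrays among 14686 genes, as the root mean square distance of the log2 values centred on their mean. For EGFR these were FITM2 (0.083), TUBA4A (0.096) and SOX9 (0.11), which like EGFR were highest in PC3-shESS2. For HBEGF they were TUB (0.12), TMEM201 (0.15) and ASS1 (0.16), and for EGF they were FDPS (0.033), CA3-AS1 (0.034) and SH3PXD2B (0.048). With 4 arrays the distances are a description.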

How the data were processed

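RNA of PC3-shC, PC3-shESS2, DU145-shC and DU145-shESS2 cells was measured on 4 one-colour (Cy3) Agilent arrays, 1 per condition, from 0.1 µg of total RNA each. Groups were taken from the sample labels. The authors deposited Agilent Feature Extraction output, which holds for every spot an intensity corrected for local background and spatial trend but not scaled between arrays. They also deposited a table of scaled intensity values, each column of which equals the processed signal times 1 constant (100% of values within 1%). GeneSpring is named in the methods, and its settings are not given in the sources used here.

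Control spots and outlier spots were left out, log2 of the processed signal was taken, the 75th percentile of each array was subtracted and spots of 1 probe were averaged. Each gene was represented by its brightest probe on average. It was compared if either of the 2 arrays had it well above background. A dim value was raised to the lowest signal well above background on its array (8.15 to 9.02), which gives a bound, and 2 dim values give no ratio. Accessions were matched, without versions, to the RefSeq gene table of GRCh38.p14, and 35080 of 58201 probes had 1 symbol. PC3 and DU145 files carry different annotation releases, with the same accession for 85.53% of spots.

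limma was fitted over genes bright on 2 or more of the 4 arrays (line and knockdown as terms, Benjamini-Hochberg at 0.05), so every adjusted p is from limma. Depth is set by the number of arrays. Other settings were median scaling, quantile normalization, normexp (offset 50, on median signals), no filter, a stricter filter, plain dim signals, the mean of probes, each probe alone, outliers kept, the deposited scaled values, no block and 1 array left out. The scripts were tested on simulated data with less noise than the limma fit found here. That checks the code and does not show which real changes these arrays could call. The members, lists and tests were chosen with earlier results of these data known. Named are all members, cell type markers, ESS2, GAPDH and ACTB, other receptors and ligands, for each comparison at most 3 list genes with the largest ratio in each direction past 2-fold that were bright on both arrays with all probes agreeing, and the 3 genes most like each of the 3 widest ranging members among those bright on all 4 arrays. CBLB, ADAM10, ADAM17, GAB1, RHBDF1 and RHBDF2 fall outside this rule and were named after their values were seen. R 4.3.3, limma 3.58.1, Python 3.11.15, numpy 2.4.6, pandas 2.3.3 and matplotlib 3.10.9 were used.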

Additional observations from a re-analysis of the deposited data

Results flagged for a closer look

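The knockdown ratios of 7 members had opposite signs in PC3 and DU145. The difference between the lines was not tested, because each condition has 1 array. The log2 ratios in PC3 and DU145 were 0.93 and -0.27 for EGFR, -0.42 and 0.57 for ERBB2, 0.21 and -0.73 for AREG, and -1.02 and 0.74 for HBEGF. They were -0.16 and 0.69 for EGF, -0.17 and 0.081 for TGFA, and -0.41 and 0.0076 for EREG, whose PC3-shESS2 signal was not well above background. Opposite signs were seen for 43% of all genes compared in both lines.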

How the results depend on the processing

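Of 29 ratios of members, 24 kept their sign over up to 9 other settings, and those of NRG1 and TGFA in DU145 and of BTC, ERBB3 and TGFA at baseline did not. With single probes taken alone, the sign also turned for ERBB3 (0.34 in PC3, 0.59 in DU145), TGFA (0.06 in PC3) and EGFR (0.18 in DU145). In PC3 no member was past 2-fold after quantile normalization (0) or normexp (0), and in DU145 none after normexp (0). HBEGF in PC3 ran from -1.13 to -0.89, EGFR in PC3 from 0.75 to 1.02 (past 2-fold with the deposited values, where HBEGF was not) and BTC in DU145 from -1.10 to -0.56. All genes past 2-fold came to 495 with normexp and 2624 without a filter and with dim spots at their own signal in PC3 (1585 with that signal alone), 266 and 2020 in DU145 (1059), and 4553 with normexp at baseline. Past 2-fold, the share that was higher moved from 50 to 38.9% (median scaling) or 59.7% (deposited values) in PC3, from 48.8 to 62.4% (normexp) in DU145 and from 52.6 to 72.1% or 31.7% (deposited values) at baseline. At baseline 3 members were past 2-fold with the mean of probes, and EGFR reversed to -1.15 with the NM_201283 probe alone. For the line, limma called 3 members among genes above background on all 4 arrays, 2 without a filter (4963 genes) and 3 with the mean of probes. With 1 array left out and no second term, 1 group is a single array. The spread then comes from the other group alone, so calls from these fits are not given. Their knockdown effects also mix in the line, and EREG came to -3.39 without PC3-shC and 2.99 without DU145-shC. The causes were not tested. The labels give no replicate numbers. The line was the block in limma, and without it 0 genes passed for the knockdown. Dim probes (EGF, NRG1, EREG in PC3) are limited by signal over background.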
